A study of Mus musculus with 24 samples.

Results

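The splicing regulators described here are the SR proteins, the hnRNPs, the CLK kinases and the related LUC7L and RBM proteins of mouse brain microglia. They were taken by name from the protein-coding genes of the deposited count table (Srsf, Hnrnp and Rbm genes, Clk1 to Clk4 and Luc7l genes), which gave 70 of its 55434 genes: 11 SR proteins, 20 hnRNPs, 4 CLK kinases, 3 LUC7L proteins and 32 RBM proteins. The family was chosen by a measured value, the level of Srsf5 in adult MRL/lpr against MRL/MpJ microglia. The adult values are therefore a description: calls of the fit across all genes are given beside the share of all genes called, with no p-value and with nothing read from them. The neonatal cytokine comparisons are tested.

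RNA-seq was done on 24 libraries of microglia selected for CD11b with magnetic beads, 3 libraries in each of 8 groups. The adult groups were untreated microglia of 16-week-old MRL/lpr mice, in which the lpr allele of Fas is followed by lupus-like autoimmunity, and of 16-week-old MRL/MpJ mice, the parent strain. The other 6 groups all came from neonatal MRL/lpr mice. Their microglia were cultured for 48 h and then exposed for 6 h to a mixture of all the cytokines, to interferon gamma (IFNg), to interferon alpha (IFNa), to tumour necrosis factor alpha (TNFa) or to interleukin 6 (IL-6), or left unstimulated. Cytokine doses are not in the labels. The neonatal cultures have no MRL/MpJ counterpart, and each adult group is 1 strain at 1 age, so strain and preparation cannot be told apart. The labels do not say that the 3 libraries of a group came from separate animals, so p-values measure only the spread between these libraries.

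SR proteins carry RNA recognition motifs and a domain rich in arginine and serine, bind exons of nascent transcripts and mostly promote exon inclusion. CLK kinases phosphorylate that domain in the nucleus and thereby set how much SR protein is free to act. hnRNPs coat nascent RNA and often work against SR proteins at the same exons, and LUC7L proteins associate with the U1 small nuclear ribonucleoprotein at the 5′ splice site. Many of these genes carry exons or introns whose use introduces an early stop codon, so that the transcript is retained or degraded in place of making protein.

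Library totals ranged from 10.08 to 19.32 M (mega) counts. All 10 microglia markers were detected in every group, at a summed 41777 to 45456 counts per M (CPM) in the MRL/lpr adults, 63050 to 64135 CPM in the MRL/MpJ adults and 5175 to 9740 CPM in the cultures. Fas had 12, 6 and 30 reads in the MRL/lpr adults and 3, 6 and 11 reads in the MRL/MpJ adults, too few to check the strain labels. In bulk RNA, fewer cells of a type and less RNA per cell cannot be told apart. Below, levels are CPM scaled by TMM (trimmed mean of M values) in replicates 1, 2 and 3, differences are log2 fold changes ± SE, and a gene is called at an adjusted p under 0.05 (edgeR quasi-likelihood test, adjusted over all genes). All 70 genes had at least 1 read, and 63 passed the filter on low counts in adults and 66 in neonates. Rbm11, Rbm42, Srsf12 and Rbm44 did not pass in either, and Rbm20, Rbm24 and Rbm46 did not pass in adults.

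In adult MRL/lpr microglia most SR proteins stood above their MRL/MpJ levels, Srsf5 farthest. Srsf5, an SR protein that promotes exon inclusion (mm10 chromosome 12, 80945504 to 80950507, plus strand), had 702, 637 and 698 CPM in MRL/lpr microglia, against 119, 121 and 115.5 CPM in MRL/MpJ microglia. The groups did not overlap, and each was tight. The difference was 2.52 ± 0.10, or 5.73-fold. Per kb of exon, Srsf5 ranked first of the 70 genes in MRL/lpr microglia (170.3 ± 9.2 CPM per kb, SD, n = 3), ahead of Srsf2 (124.3) and Hnrnph1 (100.8). In MRL/MpJ microglia the highest levels per kb were those of Hnrnpa0 (131.4 ± 6.0, SD, n = 3), Srsf9 (107.9) and Hnrnpab (92.4). These ranks come from the contrast that led to the choice of the family, and nothing is read from them.

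Of the other SR proteins, Srsf2 (SC35, which marks nuclear speckles) had 367, 373 and 363 CPM in MRL/lpr microglia and 152, 139 and 132 CPM in MRL/MpJ microglia. Srsf7, which also takes part in mRNA export, had 179, 182 and 199 CPM in MRL/lpr microglia and 61.3, 68.6 and 66.6 CPM in MRL/MpJ microglia. Srsf6 had 359, 313 and 380 CPM in MRL/lpr microglia and 115, 117 and 112 CPM in MRL/MpJ microglia. None of these 3 genes overlapped between the strains, with differences of 1.38 ± 0.10, 1.51 ± 0.10 and 1.61 ± 0.10 in the same order. Srsf1, the prototype of the family, differed by 0.70 ± 0.10, Srsf3 by 0.42 ± 0.11 and Srsf10 by 0.32 ± 0.11. Srsf9 ran the other way, with 135.5, 158 and 138 CPM in MRL/lpr microglia and 169.5, 199.8 and 166 CPM in MRL/MpJ microglia, a difference of -0.31 ± 0.11 that was -0.05 when libraries were scaled by total counts. In all, 8 of 10 tested SR proteins were called higher and 1 lower (90% called, against 45.7% of all genes), with a median of 0.92.

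All 4 CLK kinases were called higher in adult MRL/lpr microglia, against 24.1% of all genes, with a median of 1.94. Clk1 (chromosome 1, 58410189 to 58424066, minus strand) had 351, 317 and 375 CPM in MRL/lpr microglia, against 77.6, 60.2 and 65.7 CPM in MRL/MpJ microglia. Clk4 had 112, 109 and 117 CPM in MRL/lpr microglia, against 20.7, 25.3 and 19.2 CPM in MRL/MpJ microglia. These 2 kinases differed by 2.36 ± 0.12 and 2.38 ± 0.13, or 5.12-fold and 5.20-fold, close to Srsf5. Clk2 had 103, 80.8 and 99.9 CPM in MRL/lpr microglia and 32.0, 26.9 and 40.1 CPM in MRL/MpJ microglia. Clk3 had 126.5, 103 and 120.2 CPM in MRL/lpr microglia and 55.0, 43.7 and 50.2 CPM in MRL/MpJ microglia. Their differences of 1.52 ± 0.15 and 1.23 ± 0.12 were smaller, and again no library of one strain reached the range of the other. Summed, the 4 kinases held 658 to 790 plain CPM in MRL/lpr microglia, against 145 to 167 plain CPM in MRL/MpJ microglia (plain CPM are divided by the library total only).

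**Figure D1:**
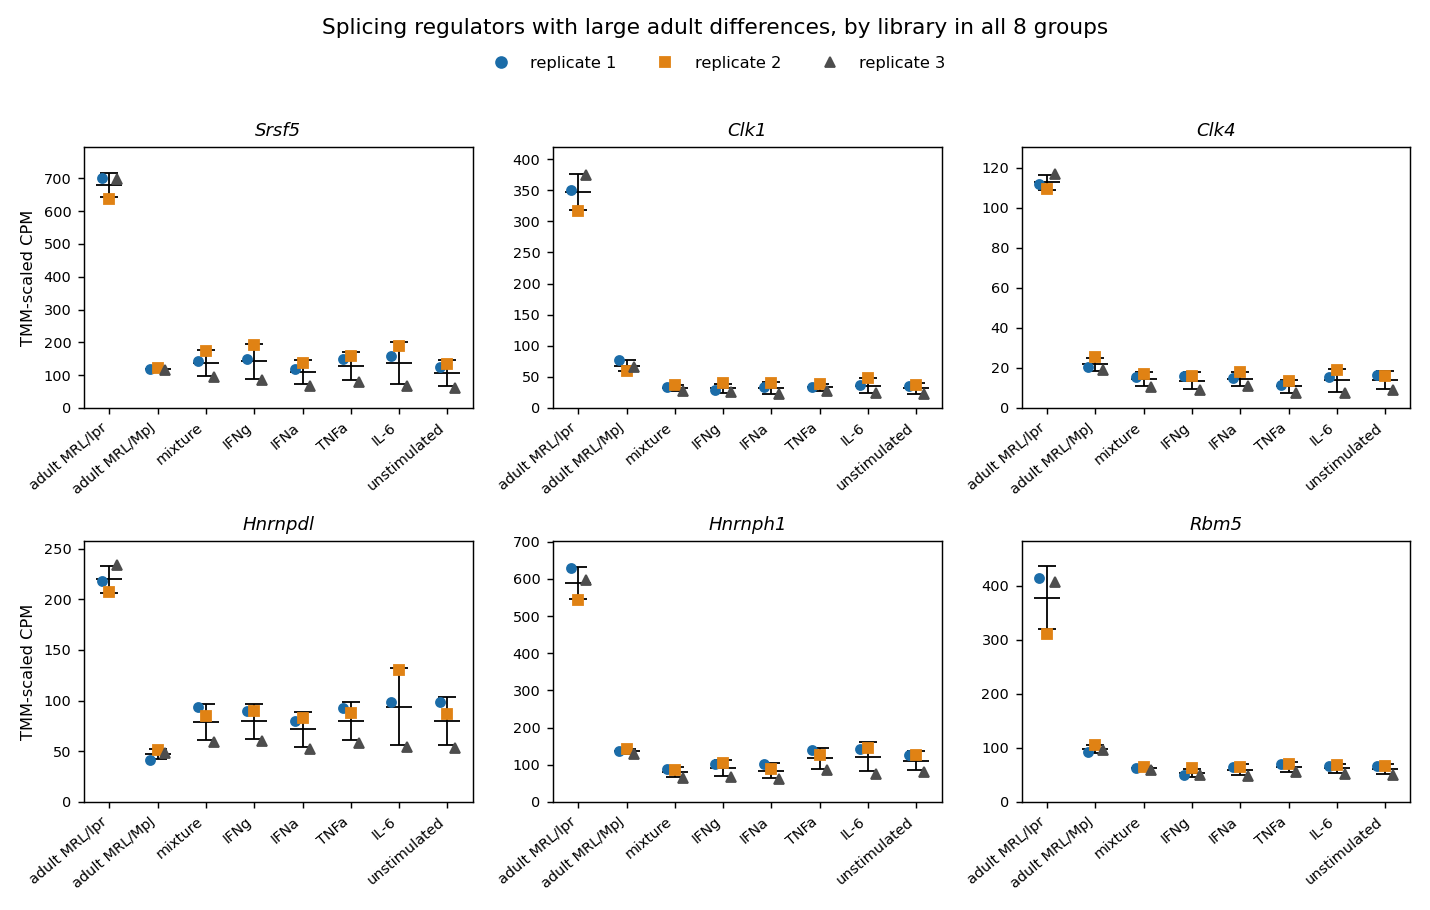
Levels of Srsf5, Clk1, Clk4, Hnrnpdl, Hnrnph1 and Rbm5 (y, CPM scaled by TMM) in the libraries of all 8 groups (x); circle, square and triangle are replicates 1, 2 and 3, and bars are mean ± SD of 3 libraries. Srsf5 lies at 637 to 702 CPM in adult MRL/lpr and at 115.5 to 121 CPM in adult MRL/MpJ, and for each gene the 3 MRL/lpr libraries lie above all other libraries.

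The hnRNPs were split. Hnrnpdl, which resembles the AU-rich element binder Hnrnpd, had 218, 207 and 234 CPM in MRL/lpr microglia, against 41.4, 51.5 and 48.7 CPM in MRL/MpJ microglia. Hnrnph1, which binds runs of G, had 629, 542 and 596 CPM in MRL/lpr microglia, against 137, 143 and 128 CPM in MRL/MpJ microglia. Both were over 4-fold higher (2.22 ± 0.11 and 2.12 ± 0.10) and did not overlap. Hnrnpa2b1 (1.48 ± 0.10), Hnrnph3 (1.40 ± 0.13) and Hnrnpa1 (1.04 ± 0.10) were also higher, as were Hnrnpl, Hnrnpu, Hnrnpr and Hnrnpul2 by 0.39 to 0.48. On the lower side, Hnrnpa0, a binder of AU-rich elements, had 224, 248 and 225 CPM in MRL/lpr microglia and 334, 365 and 356 CPM in MRL/MpJ microglia (-0.60 ± 0.10). Hnrnpab had 173, 198.5 and 169 CPM in MRL/lpr microglia and 269, 252 and 251 CPM in MRL/MpJ microglia (-0.51 ± 0.10). These 2 genes did not overlap between the strains and stayed lower, at -0.34 and -0.25, with total counts. Hnrnph2 and Hnrnpf, close relatives of Hnrnph1, differed by -0.30 ± 0.10 and -0.31 ± 0.11, and both by -0.04 with total counts. Of 20 hnRNPs, 9 were called higher and 4 lower (65% called, against 45.7% of all genes), with a median of 0.22. The most abundant hnRNP over all libraries, the C-rich RNA binder Hnrnpk, was among the 7 not called (461, 495 and 462 CPM in MRL/lpr microglia, 560.4, 529 and 552 CPM in MRL/MpJ microglia).

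All 3 LUC7L genes were called higher, against 24.1% of all genes, with a median of 1.57. Luc7l2 had 229, 194.5 and 269 CPM in MRL/lpr microglia, against 56.7, 66.9 and 70.2 CPM in MRL/MpJ microglia (1.84 ± 0.14, 3.57-fold). Luc7l differed by 1.57 ± 0.18. Luc7l3 had 189, 204 and 203 CPM in MRL/lpr microglia and 102, 181 and 112.5 CPM in MRL/MpJ microglia, a smaller difference of 0.59 ± 0.18 in which MRL/MpJ replicate 2 stood near the MRL/lpr libraries.

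The RBM proteins, a varied class that shares the RNA recognition motif, ranged from nearly 4-fold higher to lower. Rbm5, a tumour suppressor that regulates splicing of apoptosis genes, had 415, 310.5 and 407 CPM in MRL/lpr microglia, against 92.0, 106 and 95.8 CPM in MRL/MpJ microglia (1.95 ± 0.13, 3.85-fold). Rbm33 had 164, 110.5 and 158 CPM in MRL/lpr microglia, against 34.8, 32.7 and 42.1 CPM in MRL/MpJ microglia (1.98 ± 0.16, 3.94-fold). Rbm39, a coactivator related to U2AF, differed by 1.11 ± 0.12, and the relatives of Rbm5, Rbm6 and Rbm10, by 1.06 ± 0.13 and 0.89 ± 0.13. Rbm26, Rbm28, Rbm41, Rbm25 and Rbm17 were also called higher (0.35 to 1.36). Rbm14 and Rbm38 were called lower by -0.49 ± 0.13 and -0.50 ± 0.14, and by -0.23 and -0.24, no longer called, with total counts. Rbm3, which is induced by cold and is the most abundant RBM gene, had 134, 140.2 and 129 CPM in MRL/lpr microglia and 137, 140.1 and 121 CPM in MRL/MpJ microglia. The strains overlapped for Rbm3. Rbm12 was not called at -0.38 ± 0.15 (20.96, 25.5 and 21.5 CPM in MRL/lpr microglia, 25.8, 29.7 and 32.6 CPM in MRL/MpJ microglia) and was called lower under 5 of the alternatives (-0.46 to -0.38). Of 26 tested RBM proteins, 10 were called higher, 2 lower and 14 not called, with a median of 0.07. The share called was 46.2%, close to the 45.7% of all genes.

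Over the whole family, 34 of 63 tested genes were called higher and 7 lower in adult MRL/lpr microglia, that is 65.1%, against 45.7% of all 13799 genes tested (24.1% higher and 21.6% lower). The strains did not overlap for 37 genes higher and 10 lower, against 29.2% and 26.4% of all genes. The median difference was 0.42, against 0.01 over all genes. Since this contrast led to the choice of the family, nothing is read from these shares. Total-count scaling moved the median of all genes by 0.26 and called 43 members higher and 2 lower, against 45.1% of all genes, with 76.9% of all calls higher in place of 52.7%. Leaving out single libraries left 33 to 43 members called. The genes whose call ended without 1 library were Hnrnpf (-0.31 to -0.21), Hnrnph2 (-0.30 to -0.25), Srsf9 (-0.35 to -0.23), Rbm14 (-0.43 without MRL/lpr replicate 1), Rbm38 (-0.46 without MRL/lpr replicate 1), Hnrnpul2 (0.33 to 0.35), Luc7l3 (0.44 to 0.59), Rbm17 (0.30 to 0.37), Rbm41 (0.84 to 1.03), Srsf10 (0.25 to 0.36) and Srsf3 (0.35 without MRL/MpJ replicate 1).

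Other lists of the splicing machinery were mixed in the same libraries, where 24.1% of all genes were called higher and 21.6% lower. Of 22 SR-related proteins, 16 were called higher and 0 lower (72.7% called), with a median of 1.00, led by Clasrp (3.02), a protein that binds CLK kinases, and Pnn (2.49), a protein of nuclear speckles. Of 35 core spliceosome genes, 10 were called higher and 5 lower (42.9% called, median -0.05), with Prpf39 (2.47) and the U1 protein Snrnp70 (2.19) highest, and Sf3b4 (-0.69) and Sf3a2 (-0.63) lowest. Among 32 tested genes of other splicing regulators, 14 were called higher and 4 lower (56.2% called, median 0.20), with Ptbp2 (2.81) and Ddx17 (1.99) highest and Pcbp1 (-0.54) and Elavl1 (-0.37) lowest. The nonsense-mediated decay list had 8 higher and 2 lower of 16 (62.5% called, median 0.33), with its kinase Smg1 at 2.36 and Smg8 at -0.65. The SRPK kinases phosphorylate SR proteins in the cytoplasm, and their list, with DYRK kinases, phosphatases and import factors, had 3 higher and 2 lower of 10 (Srpk1 1.88, Srpk3 1.84, Ppp1r8 -0.47, Dyrk1a -0.31), with a median of -0.02. These are calls of the contrast that led to the choice of the family, and nothing is read from them.

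Several other gene groups differed between the same adult libraries, in which 24.1% of all genes were called higher and 21.6% lower. The part of these groups in the result was not tested. Of 4 nuclear-retained RNAs, 3 were called higher, and their sum was 1004 to 1406 plain CPM in MRL/lpr microglia, against 72.4 to 178 plain CPM in MRL/MpJ microglia. Malat1, a long noncoding RNA of nuclear speckles, averaged 1079 ± 188 CPM in MRL/lpr microglia and 125 ± 51.7 CPM in MRL/MpJ microglia (SD, n = 3 each). No library of one strain reached the range of the other for Malat1. Immediate early and heat shock genes, which respond quickly to many stimuli, summed to 5588 to 5970 plain CPM in MRL/lpr microglia, against 2709 to 2886 plain CPM in MRL/MpJ microglia (14 of 20 higher, 1 lower). NK cell markers summed to 31.7 to 38.1 plain CPM in MRL/lpr microglia, against 3.42 to 8.32 plain CPM in MRL/MpJ microglia, where Klre1 was at 0 (5 of 6 higher). In the cultures the NK sum was 33.9 to 84.6 plain CPM with IFNg, 45.5 to 60.9 with IFNa and 44.2 to 101 in the mixture. It was 0.238 to 5.52 plain CPM in unstimulated cells. Ncr1 and Klrb1c were at 0 in these stimulated groups. Klrk1, the only NK marker tested in the cultures, was called higher in them by 4.68 to 5.37. T cell markers summed to 11.97 to 17.0 plain CPM in MRL/lpr microglia, against 5.63 to 9.52 plain CPM in MRL/MpJ microglia, where Cd8b1 was at 0 (4 of 8 higher). Sums of different genes do not measure shares of cells. B or plasma cell markers summed to 19.5 to 80.3 plain CPM in MRL/lpr microglia, against 3.59 to 9.07 plain CPM in MRL/MpJ microglia (1 of 3 tested higher). Border macrophage markers were lower, at 60.4 to 113 plain CPM in MRL/lpr microglia, against 186 to 224 plain CPM in MRL/MpJ microglia (5 of 5 lower), and 8 of 10 microglia markers were lower.

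Gene counts add up all transcripts of a gene, so productive and unproductive isoforms cannot be told apart. The GENCODE M21 annotation shows which members have unproductive isoforms. Of the 63 genes tested in adults, 34 have both a transcript annotated for nonsense-mediated decay and one with a retained intron, and these had a median difference of 0.96, with 24 called higher and 1 lower. The 16 genes with only 1 of these kinds had a median of 0.17 (5 higher, 1 lower). The 13 genes with neither had a median of -0.23 (5 higher, 5 lower). The same order was seen over all protein-coding genes within a narrower range, with medians of 0.23 for 2844 genes with both kinds (37% called higher and 15.8% lower), -0.04 for 5250 with 1 kind (21.6% and 23.6%) and -0.19 for 4275 with neither (15% and 28%). Hnrnph1, listed with neither, has 18 annotated transcripts, of which 3 are protein-coding. How completely each gene is annotated was not tested. The adult differences come from the contrast that led to the choice of the family, and nothing is read from these medians. In the neonatal comparisons the medians of the members were 0.03 to 0.21 with both kinds, 0.01 to 0.08 with 1 kind and -0.07 to 0.08 with neither.

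**Figure D2:**
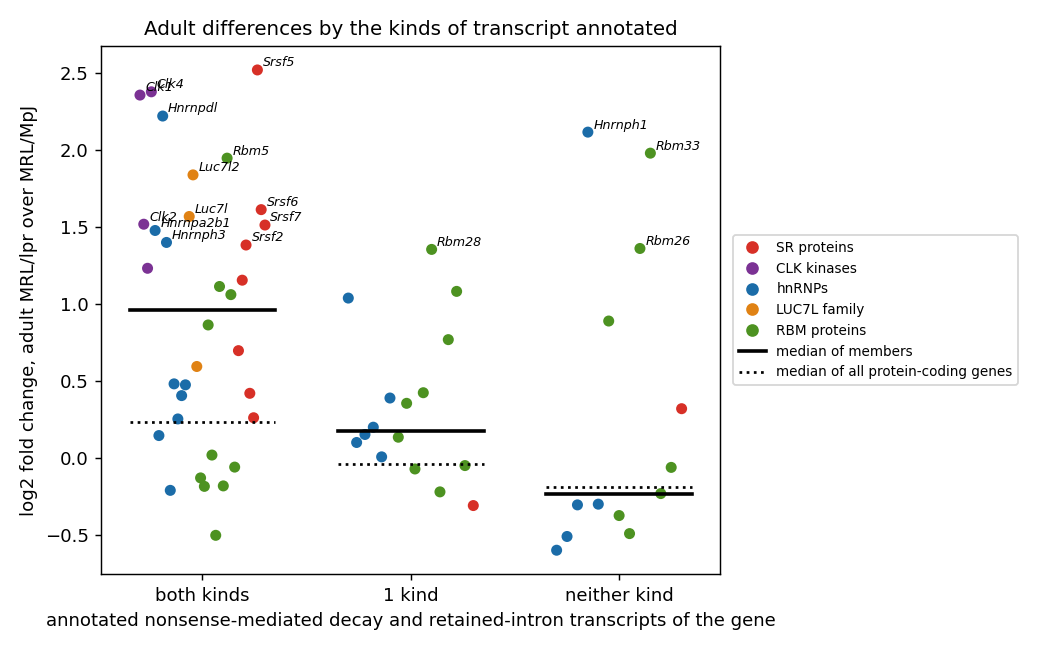
Adult log2 fold change (MRL/lpr over MRL/MpJ) of each of the 63 tested splicing regulators, by whether the gene has annotated transcripts for nonsense-mediated decay and with a retained intron; points are coloured by class, solid bars are medians of the members and dotted bars those of all protein-coding genes. The medians are 0.96 with both kinds, 0.17 with 1 kind and -0.23 with neither, against 0.23, -0.04 and -0.19 over all protein-coding genes. This contrast led to the choice of the family, and nothing is read from these medians.

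In 11 members, 5 of them SR proteins, 16 internal exons with the stop codon of a decay transcript were found. They overlap no exon of a protein-coding transcript of the gene. Other kinds of transcript, such as those with a retained intron, were not searched for these exons. Those of Srsf3, Srsf7, Hnrnpl and Hnrnpll are shown, from the first base of the exon to the stop codon in capitals (mm10, 5′ to 3′ on the gene's strand), as examples from 2 classes among the genes that also changed with cytokines. Rbm7, which has such an exon of 105 bases and also changed, is not shown.
Srsf3 exon, chr17:29039454-29039909, plus strand: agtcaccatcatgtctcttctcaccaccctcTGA
Srsf7 exon, chr17:80204622-80205081, minus strand: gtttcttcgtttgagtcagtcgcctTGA
Hnrnpl exon, chr7:28817335-28817404, plus strand: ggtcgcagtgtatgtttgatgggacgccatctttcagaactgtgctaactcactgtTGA
Hnrnpll exon, chr17:80044940-80045022, minus strand: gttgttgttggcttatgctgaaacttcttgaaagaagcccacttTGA
The whole exons are 456, 460, 70 and 83 bases long in that order. Counts per gene do not show how often any of them was used.

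In neonatal MRL/lpr microglia the 5 stimulated groups were each compared with the same 3 unstimulated libraries, so the comparisons share them and are not independent. The mixture changed the most members, with 10 called higher and 6 lower of 66 tested, 24.2%, against 32% of all 14626 genes (15.7% higher and 16.4% lower). IFNa changed 6 higher and 3 lower, 13.6%, against 14.5% of all genes (9.41% higher and 5.07% lower). IFNg changed 4 higher and 2 lower, 9.09%, against 12.9% of all genes (8.57% higher and 4.32% lower). Without the replicate block these shares lay below those of all genes. The medians of the members were 0.04, 0.03 and 0.09, against -0.05, -0.04 and -0.02 over all genes. TNFa and IL-6 gave 0 calls in edgeR, against 8.1% of all genes with TNFa and 0.978% with IL-6. At an unadjusted p under 0.05 there were 4 members in each, against 18.5% of all genes with TNFa and 9.55% with IL-6. limma-voom called 0 members in each, against 8.83% and 1.1% of all genes in that order, and DESeq2 called 1 in each, against 11.4% and 2.55%. Total counts shifted the median of all genes by -0.42 in the mixture, -0.19 with IFNg and -0.18 with IFNa, and then called 3 higher and 21 lower (44.7% of all genes), 2 higher and 2 lower (15.1%), and 4 higher and 6 lower (18.8%). Of all calls in the mixture, 48.8% were higher with TMM and 23.7% with total counts, with IFNg 66.5% and 45.1%, and with IFNa 65.0% and 43.3%. Replicate numbers pair the neonatal libraries, and with the number as a block the calls were 18 higher and 10 lower in the mixture (42.4%, against 43.2% of all genes), 14 and 5 with IFNg (28.8%, against 23.7%), 12 and 7 with IFNa (28.8%, against 25.4%), 5 and 1 with TNFa (9.09%, against 17.4%), and 1 and 0 with IL-6 (1.52%, against 4.88%). With the block the members' shares thus lay above those of all genes for IFNg and IFNa. The p-values given below are those without the block, so the spread between replicate numbers enters them. Calls said to end without a library are also from fits without the block. All 16 calls of the mixture, 6 with IFNg and 9 with IFNa were made with the block too. Where groups are said below not to overlap, their 3 libraries each are described, and this is not a call. In adults 29.2% of all genes lay higher and 26.4% lower without overlap. That share is not given for the neonatal comparisons.

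The largest called change was that of Rbm43 (chromosome 2, 51924448 to 51935163, minus strand). It had 66.4, 90.9 and 74.7 CPM in the mixture, 33.8, 36.0 and 40.1 CPM with IFNg, 69.5, 76.7 and 64.9 CPM with IFNa, 19.7, 20.8 and 52.4 CPM with TNFa and 16.8, 19.3 and 24.8 CPM with IL-6, against 13.8, 23.2 and 28.1 CPM in unstimulated cells. All libraries of the mixture, IFNg and IFNa lay above all unstimulated ones. Rbm43 rose by 1.83 ± 0.33 in the mixture (3.56-fold, adjusted p = 0.000408) and by 1.70 ± 0.33 with IFNa (3.24-fold, adjusted p = 0.00186), both by edgeR. With IFNg the difference of 0.75 was not called without the block (edgeR adjusted p = 0.16) and was called with it (0.80). The rises with IFNa and the mixture were called with total counts (1.55 and 1.44) and with each library left out. The IFNa call ended when replicate 2 was left out of every neonatal group. In adults Rbm43 overlapped between the strains, at 28.1, 32.3 and 28 CPM in MRL/lpr microglia and 38.3, 31.5 and 34.0 CPM in MRL/MpJ microglia.

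The start of Rbm43 is shown because it had this response. RefSeq gives the gene 2 starts, and the window of the other held no match. The window shown runs from 250 bases before to 50 bases after the start (RefSeq, GRCm38.p6, chr2:51935114-51935413, minus strand, 5′ to 3′), and capitals mark 2 overlapping matches to the core of interferon-stimulated response elements, searched as GAAA, any 2 bases and GAAA again on both strands.
Rbm43: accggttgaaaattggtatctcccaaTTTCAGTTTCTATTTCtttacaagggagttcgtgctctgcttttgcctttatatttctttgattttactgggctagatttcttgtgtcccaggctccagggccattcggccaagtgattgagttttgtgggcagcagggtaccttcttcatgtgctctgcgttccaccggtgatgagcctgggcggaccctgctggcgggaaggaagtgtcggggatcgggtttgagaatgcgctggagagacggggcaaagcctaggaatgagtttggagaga
The capitals span 16 bases, from 224 to 209 bases upstream of the start. At least 1 match was held by 3.44% of all 32851 windows of this length and at least 2 by 0.225%. Of the 61 members with a window, Rbm28 and Rbm41 also held 1, and neither was called in any interferon comparison without the block. TTCNNNGAA, the STAT motif, reads the same on both strands and was in 8.30% of all windows and in those of 6 members (Hnrnpa2b1, Hnrnph1, Hnrnpr, Rbm19, Rbm45 and Rbm5). Neither motif was in the windows of Hnrnph2, Rbm7, Rbm17, Srsf7, Srsf3 or Srsf5. A match in letters is not a binding site.

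Rbm7, a subunit of the nuclear exosome targeting complex, and Rbm17 (SPF45), a factor of 3′ splice site choice, rose with both interferons and in the mixture. Rbm7 had 181, 207.5 and 212 CPM in the mixture, 133, 163 and 149 CPM with IFNg and 144, 146.5 and 153 CPM with IFNa, against 68.1, 97.4 and 105 CPM in unstimulated cells. It rose by 1.15 ± 0.18 in the mixture (adjusted p = 8.86e-05), 0.72 ± 0.17 with IFNg (0.0109) and 0.71 ± 0.17 with IFNa (0.00974), all by edgeR. The calls with IFNg (0.55) and IFNa (0.55) ended without unstimulated replicate 1, the lowest library, and that with IFNg also without IFNg replicate 2 (0.65). Rbm7 was above its unstimulated range in all 9 of these libraries. Rbm17 had 104, 116.5 and 89.2 CPM in the mixture, 87.2, 89.5 and 79.6 CPM with IFNg and 93.7, 103 and 86.6 CPM with IFNa, against 58.3, 63.4 and 63.3 CPM in unstimulated cells. It rose by 0.74 ± 0.11 (edgeR adjusted p = 8.68e-05), 0.47 ± 0.11 (0.01) and 0.62 ± 0.11 (0.00122) in the same order, with no overlap. With total counts the mixture (0.34) and IFNg (0.29) calls of Rbm17 ended, as did the IFNg call without unstimulated replicate 1 (0.43). Rbm45, an RNA-binding protein with several recognition motifs, was lower. It fell by 0.45 with IFNg and by 0.45 in the mixture (25.5, 23.1 and 20.04 CPM with IFNg, 21.7, 25.01 and 22.02 CPM in the mixture, 31.2, 33.4 and 29.4 CPM unstimulated). Leaving out any of 4 libraries ended the IFNg call (-0.46 to -0.37) and any of 3 the mixture call (-0.41 to -0.37).

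Hnrnph2, the G-tract binder encoded on the X chromosome in mouse, was the hnRNP with the largest rise. It had 234, 183 and 269.7 CPM in the mixture, 180.4, 180.8 and 199.7 CPM with IFNg and 152, 174 and 148.5 CPM with IFNa, against 85.3, 95.2 and 103 CPM in unstimulated cells. No stimulated library of these 3 groups reached down to the unstimulated range. Hnrnph2 rose by 1.28 ± 0.14 in the mixture (2.42-fold, edgeR adjusted p = 4.47e-06), 0.99 ± 0.14 with IFNg (0.000182) and 0.74 ± 0.14 with IFNa (0.00162), and the 3 calls ended under none of the alternatives except that the IFNa call ended when replicate 1 (0.71) or 2 (0.68) was left out of every neonatal group. With TNFa it had 89.7, 98.4 and 97.3 CPM, inside the unstimulated range. Its relative Hnrnph1 had 88.6, 86.4 and 64.9 CPM in the mixture, against 126, 127 and 80.7 CPM in unstimulated cells, which overlap. Hnrnph1 was called lower with the block (-0.46) and not without it. Hnrnpd, which binds AU-rich elements and speeds decay, rose by 0.41 ± 0.13 in the mixture (edgeR adjusted p = 0.0188) and 0.40 ± 0.13 with IFNa (0.0414), and Hnrnpk rose by 0.37 ± 0.10 in the mixture (0.0118). The mixture values of Hnrnpd and Hnrnpk were -0.0035 and -0.053 with total counts, and the Hnrnpd call ended without unstimulated replicate 3 (0.37). With IFNa the Hnrnpd call ended without any of 5 libraries (0.36 to 0.44).

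**Figure D3:**
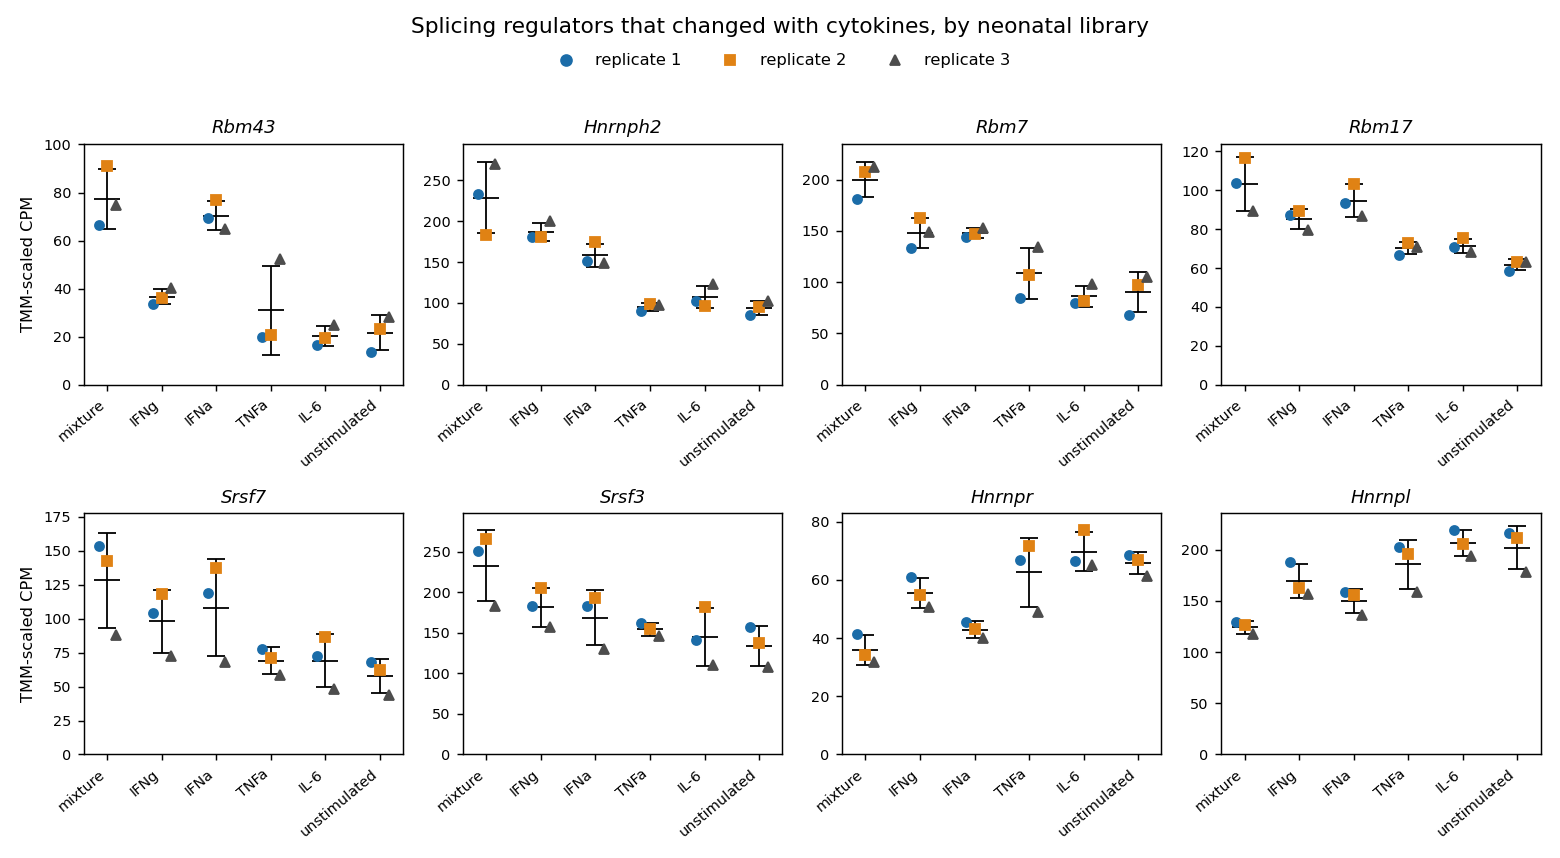
Levels of 8 members that changed with cytokines (y, CPM scaled by TMM) in the 6 neonatal groups (x); circle, square and triangle are replicates 1, 2 and 3, and bars are mean ± SD of 3 libraries. Hnrnph2 lies at 183 to 269.7 CPM in the mixture and at 85.3 to 103 CPM in unstimulated cells, and Hnrnpr at 31.9 to 41.5 CPM and 61.5 to 68.6 CPM.

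Other hnRNPs fell. Hnrnpr had 41.5, 34.3 and 31.9 CPM in the mixture and 45.6, 43.2 and 39.995 CPM with IFNa, against 68.6, 67.0 and 61.5 CPM in unstimulated cells. Hnrnpl and Hnrnpll, paralogs that repress variable exons of Ptprc (CD45), were both lower with IFNa and the mixture. Hnrnpl had 129, 126 and 117 CPM in the mixture and 158, 155 and 136 CPM with IFNa, against 217, 211 and 178 CPM in unstimulated cells. Hnrnpll had 44.3, 46.6 and 41.7 CPM in the mixture, 53.3, 48.7 and 47.6 CPM with IFNg and 53.9, 48.5 and 40.5 CPM with IFNa, against 67.0, 68.8 and 64.6 CPM in unstimulated cells. None of these libraries overlapped with the unstimulated ones. In the mixture Hnrnpr fell by 0.87 (SE 0.15, edgeR adjusted p = 0.000209), Hnrnpl by 0.70 (SE 0.13, 0.000384) and Hnrnpll by 0.60 (SE 0.13, 0.00173). With IFNa they fell by 0.61 (0.00773), 0.43 (0.0287) and 0.49 (0.015), and with IFNg Hnrnpll fell by 0.42 (0.0385). Leaving out single libraries ended the IFNa calls of Hnrnpl (-0.47 to -0.36, 5 libraries) and Hnrnpll (-0.38 without IFNa replicate 3, -0.46 without unstimulated replicate 2) and the IFNg call of Hnrnpll (-0.47 to -0.40, any of the 6 libraries). Hnrnpul1 and Rbm38 were called lower in the mixture by -0.44 ± 0.16 and -0.59 ± 0.22, calls that ended without any of 4 libraries (-0.41 to -0.31) and without any of 6 (-0.67 to -0.48).

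Among SR proteins, Srsf7 and Srsf3, which both take part in mRNA export, rose in the mixture. Srsf7 had 154, 142 and 88.2 CPM in the mixture and 119, 137 and 68.1 CPM with IFNa, against 67.7, 62.5 and 43.7 CPM in unstimulated cells. Srsf3 had 250.3, 265 and 182.5 CPM in the mixture, against 156.5, 138 and 108 CPM in unstimulated cells. The replicate 3 library was the lowest of each of these groups, and every mixture library lay above all unstimulated ones. Srsf7 rose by 1.14 ± 0.29 (2.21-fold, edgeR adjusted p = 0.0063) and Srsf3 by 0.80 ± 0.21 (0.00666). With total counts, they were 0.73 and 0.38 and not called. With IFNa Srsf7 differed by 0.90 ± 0.29 (edgeR adjusted p = 0.049), a call that ended without any of 5 libraries (0.69 to 1.02). Srsf1 had 165, 177 and 163 CPM with IFNg, against 135, 129 and 114 CPM in unstimulated cells, and rose by 0.42 ± 0.11 (edgeR adjusted p = 0.0217). That call ended without IFNg replicate 2 (0.38), unstimulated replicate 2 (0.44) or unstimulated replicate 3 (0.35), and with total counts (0.22).

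Srsf5, the member farthest apart in adults, overlapped between the cytokine groups. It had 143, 174 and 94.5 CPM in the mixture, 149, 191 and 86.4 CPM with IFNg, 120.2, 138.5 and 67.4 CPM with IFNa, 148, 157 and 80.0 CPM with TNFa and 159, 188 and 65.9 CPM with IL-6, against 126, 133 and 61.4 CPM in unstimulated cells. All 18 libraries lay below the adult MRL/lpr range of 637 to 702 CPM. The differences were 0.36 in the mixture, 0.41 with IFNg, 0.03 with IFNa, 0.27 with TNFa and 0.37 with IL-6, with edgeR adjusted p of 0.612 to 0.99. Replicate 3 was the lowest library of every group. At each replicate number, the mixture, IFNg, TNFa and IL-6 libraries lay above the unstimulated one, which did not hold for IFNa. With the block the mixture (0.40 ± 0.11) and IFNg (0.42 ± 0.11) were called.

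Of the CLK kinases, Clk3 had 52.5, 63.1 and 43.2 CPM in the mixture, against 31.7, 34.8 and 29.4 CPM in unstimulated cells, without overlap, and rose by 0.73 ± 0.22 (edgeR adjusted p = 0.0197). The call ended without mixture replicate 2 (0.65), unstimulated replicate 1 (0.72) or unstimulated replicate 3 (0.67), and with total counts (0.32). Clk1 stood at 21.7 to 48.3 CPM over all 18 neonatal libraries, below every adult library of either strain. Clk4 stood at 7.25 to 18.8 CPM there, against 19.2 to 25.3 CPM in MRL/MpJ adults. Adult and neonatal libraries were scaled separately, and in plain CPM Clk4 overlapped (20.6 in unstimulated replicate 1, 17.5 in MRL/MpJ replicate 3). Clk1 differed from unstimulated cells by -0.00 to 0.20 and Clk4 by -0.37 to 0.07, not called in any of the 5 comparisons. Clk2 was called lower in the mixture with the block (-0.46) and not without it. Clk3 was called higher with IFNa with the block (0.34) and without replicate 3 of every neonatal group (0.51).

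Luc7l2 had 98.1, 116 and 117 CPM in the mixture, against 81.5, 92.5 and 86.0 CPM in unstimulated cells, and rose by 0.35 ± 0.11 (edgeR adjusted p = 0.0217). With total counts it was -0.070, and the call ended without unstimulated replicate 1 (0.31) or 3 (0.34). With TNFa the block called Luc7l2 (0.31), Rbm27, Rbm39, Srsf11 and Srsf6 higher and Hnrnpll (-0.33) lower, and with IL-6 it called Rbm26 (0.55) higher. Over the 6 neonatal groups at once, 14 of 66 members differed (21.2%, against 33.1% of all genes), and 38 with the block (57.6%, against 49.9%). The 14 were Hnrnpd, Hnrnph2, Hnrnpl, Hnrnpll, Hnrnpr, Luc7l, Rbm7, Rbm17, Rbm38, Rbm43, Rbm45, Srsf1, Srsf3 and Srsf7.

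**Figure D4:**
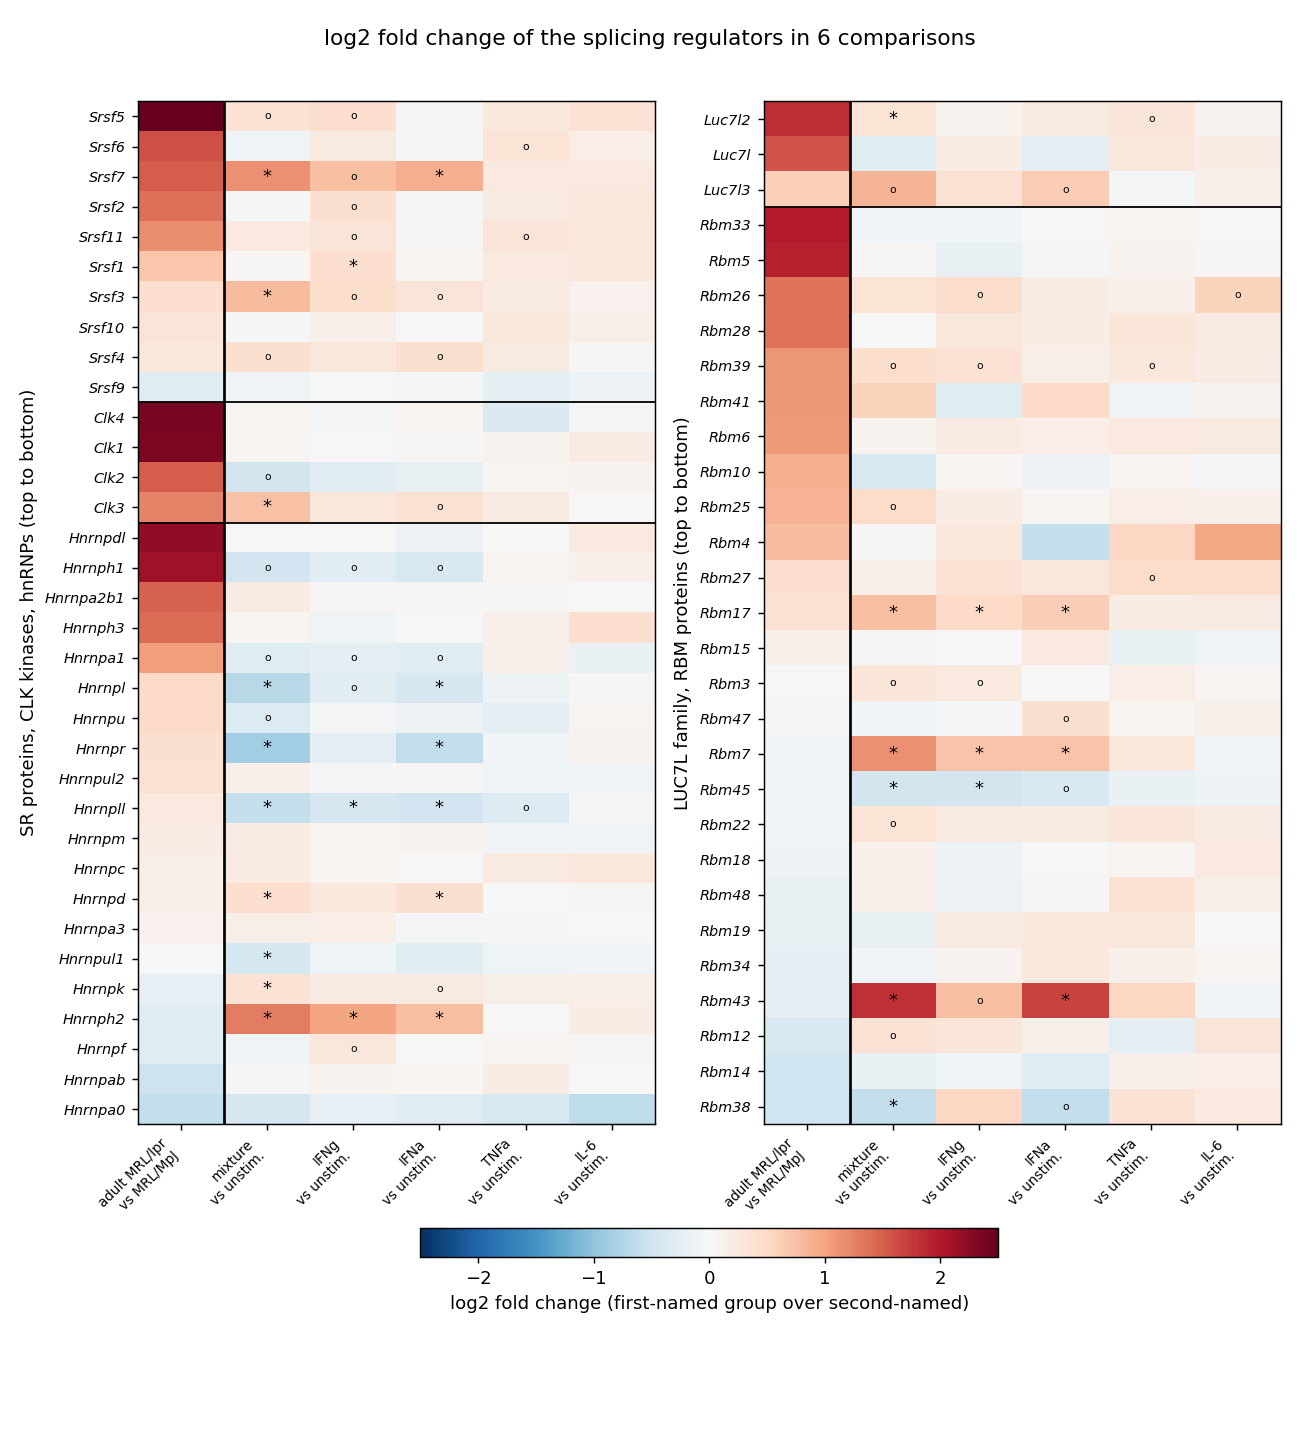
Log2 fold change (colour) of the 63 splicing regulators tested in adults, in the adult comparison (MRL/lpr over MRL/MpJ) and in the 5 neonatal comparisons (each over unstimulated); in the neonatal columns an asterisk marks a call, and a circle a call made with the replicate block and not without it. Rows run by adult difference within each class, from Srsf5 at 2.52 down to Hnrnpa0 at -0.60.

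The other splicing lists were tested in the same fit, where the mixture changed 32% of all genes (15.7% higher and 16.4% lower). In the mixture 4 of 22 SR-related proteins rose and 0 fell (18.2% called), led by the SR-like splicing activator Tra2a (2.25, edgeR adjusted p = 2.9e-06) and Ppig (0.81). Of 35 core genes, 5 rose and 1 fell (17.1%), led by the U4/U6 protein Prpf4 (2.30, 7.3e-06), with Snrpa at -0.53. Of 32 other regulators, 9 rose, among them Nono (1.09) and Ddx17 (0.71), and Qk fell (-0.77), which is 31.2%. Of 16 decay genes, 8 rose, among them the exon junction gene Magohb (1.14), and Smg6 fell (-0.75), which is 56.2%. Smg proteins act where a ribosome meets an early stop codon. Of the 10 genes of the SR kinase list, Dyrk1a rose (0.41) and Srpk2 fell (-1.18, 0.0003), which is 20%. IFNa raised Tra2a (1.68), Prpf4 (2.09) and Nono (0.92), and lowered Srpk2 (-0.63) and Snrpa (-0.58). Prpf4, Tra2a and Nono were thus higher with IFNa and in the mixture. IFNg raised Prpf4 (1.05), Prpf31 (0.97), Ddx17 (1.08) and Smg5 (0.58) and lowered Dyrk1b (-1.23). TNFa raised Smg8 (0.49) and Gspt1 (0.47) and lowered Srpk2 (-0.71) and Qk (-0.64). IL-6 gave 0 calls by edgeR in these 5 lists.

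Within the neonatal groups, members also differed by replicate number, whatever the cytokine. In the library numbered 3, 21 of 66 members (31.8%) were the lowest of their group in all 6 groups, against 4.55% of all genes. These were all 4 CLK kinases, 6 of 10 tested SR proteins (Srsf2, Srsf3, Srsf5, Srsf6, Srsf7 and Srsf11), 7 of 20 hnRNPs (Hnrnpa1, Hnrnpdl, Hnrnph1, Hnrnph3, Hnrnpl, Hnrnpll and Hnrnpr), Rbm25, Rbm28, Rbm39 and Luc7l3. Replicate 3 minus the mean of replicates 1 and 2 averaged -1.001 for Srsf5 on the log2 scale, -0.79 for Clk4, -0.71 for Hnrnpdl, -0.65 for Hnrnph1 and -0.57 for Clk1. Rbm47, a partner of the RNA editing enzyme Apobec1, was instead highest in replicate 3 in all 6 groups (0.48). Of the other splicing lists, 6 of 22 SR-related proteins and 7 of 35 core spliceosome genes were also lowest in replicate 3 in all 6 groups. The same held for 3 of 32 other splicing regulators, 2 of 16 decay genes and 1 of 10 genes of the SR kinase list. In replicate 2, 8 of 66 members (12.1%) were the highest of their group in all 6 groups, against 2.68% of all genes. The labels do not say what a replicate number stands for.

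Of these 21 genes low in replicate 3, 20 were among the 34 called higher in adults, which is 95.2% of the first list and 58.8% of the second. Over all 12781 genes in both fits, 652 were lowest in replicate 3 in all 6 groups, and 251 of these (38.5%) were called higher in adults. The adult calls come from the contrast that led to the choice of the family. Of the 23 members with an adult difference of at least 1, 15 were lowest in replicate 3 in all 6 groups. Across the 63 members in both fits, Pearson's r between the adult difference and the mean replicate 3 difference was -0.65 and Spearman's rho -0.64, against -0.13 and -0.08 across all genes in both fits. Members are not independent, and all points share the same libraries, so this is a description. The sum of the 4 nuclear-retained RNAs was also lowest in replicate 3 in 6 of 6 groups, at 98.3 to 193.5 plain CPM, against 213 to 424 plain CPM in replicates 1 and 2. Scaled by TMM, only Neat1 of the 4 was itself lowest there in all 6 groups, and Malat1 was not the lowest with IFNg or in the mixture. Neat1, the RNA scaffold of paraspeckles, had 12.9 to 30.0 CPM in replicate 3, against 60.3 to 119 CPM in replicates 1 and 2. Some cell markers also differed by replicate number. The median replicate 3 difference was -1.59 over 5 astrocyte, -1.11 over 3 tested neutrophil and -0.41 over 5 neuron markers. It was 0.51 over 3 tested oligodendrocyte, 0.27 over 4 endothelial and 0.13 over 10 microglia markers, against -0.02 over all genes. Border macrophage markers stood at -0.11, and the 1 tested NK and T cell marker at 1.81 and -0.08. The part of these RNAs and markers in the result was not tested.

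**Figure D5:**
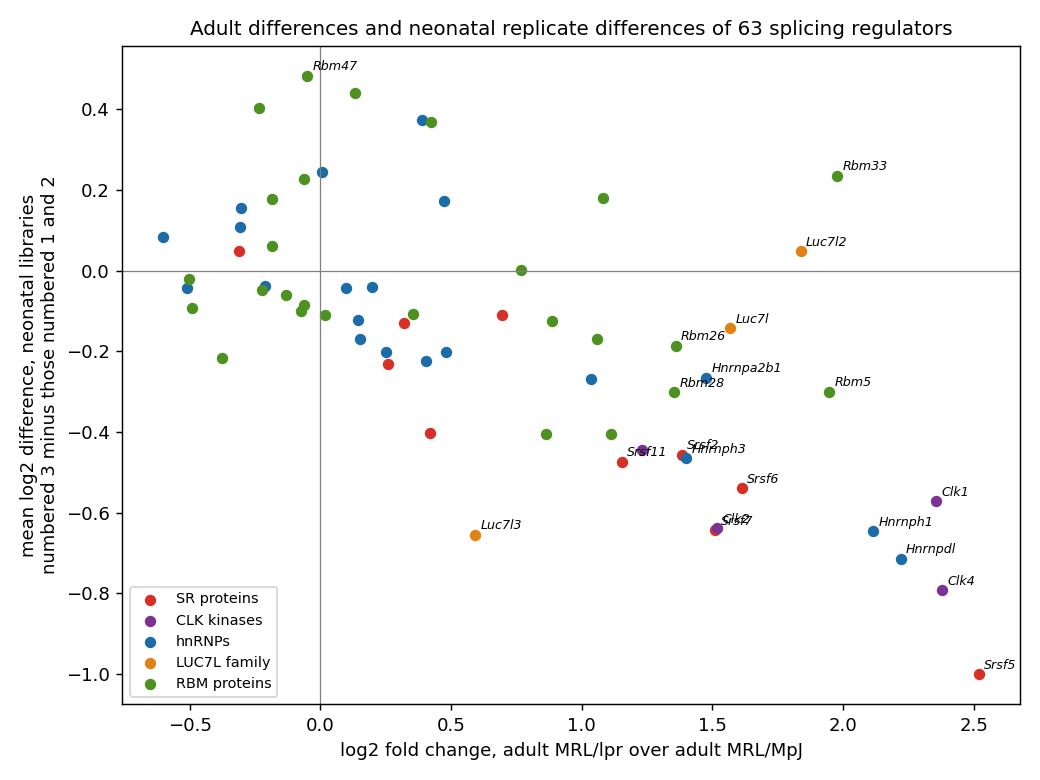
Adult log2 fold change (MRL/lpr over MRL/MpJ, x) against the mean log2 difference of neonatal replicate 3 from replicates 1 and 2 over the 6 groups (y), 1 point per splicing regulator, 63 in all, coloured by class. Srsf5 lies at the lower right (2.52, -1.001), and Pearson's r is -0.65 over these points.

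Across all 8 groups, the family took up 1.13 to 1.26% of all counts in adult MRL/lpr microglia, 0.582 to 0.635% in adult MRL/MpJ microglia and 0.574 to 0.876% in the cultures. Per kb, Hnrnpab ranked first in all 6 neonatal groups (167.0 to 194.3 CPM per kb). Some members share exon sequence with neighbours, so their counts are uncertain without the counting rule: 75.4% of the exon bases of Rbm42, 60.5% of Rbm4, 38.7% of Rbm12, 18.6% of Rbm14 and 14.7% of Hnrnpm lie in another gene on the same strand. On the opposite strand this holds for 43.0% of Srsf4, 29.1% of Hnrnpab, 26.5% of Hnrnpf, 25.3% of Srsf2, 18.9% of Luc7l2 and 15.2% of Clk3.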

How the data were processed

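The deposited table holds raw read counts per gene for the 24 libraries, as the authors made it, with no normalisation. The submitters' processing notes name cutadapt 2.1, STAR 2.7.1a and the mm10 build. How reads were assigned to genes and strands was not given in the sources used here. Per the labels' protocols, a directional library kit was used. Coordinates and transcript kinds came from GENCODE M21, which matched 99.41% of the genes.

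The 6 adult and the 18 neonatal libraries were fitted separately with the robust quasi-likelihood model of edgeR 4.0.16 (R 4.3.3) after filterByExpr and TMM scaling, with Benjamini-Hochberg adjustment over all 13799 and 14626 genes tested. The SE is the absolute log2 fold change over the square root of F. Alternatives were RLE factors or total counts, a filter of 1 CPM in 3 libraries or none, the replicate number as a block, DESeq2 1.42.0, limma-voom 3.58.1, other sets of libraries and each library left out. Leaving out 1 replicate number from every neonatal group was added after seeing the data. Same-numbered neonatal libraries deviated together in 45 of 45 pairs (correlations of 0.184 to 0.687), so the numbers pair them, whereas 2 of 3 adult pairs were over 0.1. No same-group libraries were identical, and pairs within groups differed by a chi-square per degree of freedom of 5.36 or more.

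Genes were named by a rule: Srsf5 and the CLK kinases throughout, the 8 highest and 8 lowest in adults (from a mean log2 CPM of 2 up), up to 8 called members each way in neonates, the most abundant of each class, and up to 2 each way of the other lists. Other members named were chosen after their values were seen. The members, the lists and the rule were chosen with earlier results of these data known. The values of 1 gene of the other lists are not reported here. The steps were tested on simulated data.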

Additional observations from a re-analysis of the deposited data

How the results depend on the processing

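Of 1578 alternative values for 97 named differences, 1375 kept their direction and side of the threshold, 190 kept the direction and were no longer called, 10 became called and 3 changed sign. The 3 were in the mixture with total counts, where Hnrnpd was -0.0035, Hnrnpk -0.053 and Luc7l2 -0.070. Total counts shifted the median of all genes in the mixture by -0.42, and with TMM these 3 genes were at 0.41, 0.37 and 0.35 in the same order.

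With the replicate number as a block, 38 members differed among the 6 neonatal groups in place of 14, and 28 were called in the mixture, 19 with IFNg, 19 with IFNa, 6 with TNFa and 1 with IL-6, in place of 16, 6, 9, 0 and 0. All 14 and all of the 16, 6 and 9 were among them. In adults the block called 44 in place of 41. Without the filter IFNg gave 2 calls. DESeq2 gave 1 with TNFa and 1 with IL-6.

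Leaving out single libraries gave 33 to 43 calls in adults, 11 to 18 in the mixture, 2 to 5 with IFNg, 5 to 8 with IFNa, 0 with TNFa and with IL-6, and 10 to 14 among the neonatal groups. IFNg gave 2 calls without IFNg replicate 2 or unstimulated replicate 1, and 3 without unstimulated replicate 2. IFNa gave 5 without unstimulated replicate 1 or 2. Without replicate 1 of every neonatal group, 5 members differed among the groups, with 7 calls in the mixture, 1 with IFNg and 1 with IFNa. Without replicate 2 these were 3, 6, 1 and 0, and without replicate 3 they were 16, 17, 6 and 13. With 2 libraries a group, fewer samples enter these fits. Counts per gene limit what can be said of isoforms.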
